A study of Mus musculus with 6 samples.

Results

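The genes described here are 10 transcripts of the growth hormone, insulin-like growth factor (IGF) and insulin system of the liver: Ghr, Socs2, Igf1, Igfals, Igfbp1, Igfbp2, Igfbp3, Igfbp4, Insr and Irs2. They were chosen by name for their place in this pathway and found in the count table by the Ensembl identifier that carries each symbol in the GENCODE annotation of GRCm38. All 10 were among the 54532 gene rows with an identifier, and all 10 were among the 14145 genes expressed highly enough to test.

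Liver RNA was compared between 3 wild-type mice and 3 Cd44 knockout mice, 1 library per mouse. The knockout mice carried the Cd44tm1Hbg allele in every cell (strain B6.Cg-Cd44tm1Hbg/J), and the wild-type mice are labelled by genotype alone. The Cd44 protein is a hyaluronan receptor on the surface of many leukocytes. Every mouse of both genotypes was fed ethanol (5% by volume) in a Lieber-DeCarli liquid diet over 10 days and gavaged with ethanol at 5 g/kg on day 11, and the liver was taken 9 hours after the gavage. Mice without ethanol were not analysed here, so each comparison asks how ethanol-exposed livers of the 2 genotypes differed, and no value speaks to the effect of ethanol. The sources used here give no age, sex, feeding state or litter.

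Growth hormone reaches hepatocytes from the pituitary and binds the receptor encoded by Ghr, which works through the kinase JAK2 and the transcription factor STAT5. STAT5 drives Igf1, which encodes the hormone IGF-I, Igfals, which encodes the acid-labile subunit that keeps IGF-I in the circulation, and Socs2, which encodes a feedback inhibitor of the receptor. Insulin acts through the receptor encoded by Insr and the adaptor proteins IRS1 and IRS2, and it silences FOXO transcription factors; Igfbp1, Irs2 and the gluconeogenic gene Pck1 are well-known genes that FOXO factors switch on when insulin is low. The liver is the main source of circulating IGF-I, and the IGF binding proteins carry it and limit its access to its receptor.

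Reads assigned to named genes came to 15429784 to 19293777 per library. Counts of Cd44 itself were 590, 175 and 568 in wild-type and 1, 0 and 0 in knockout libraries, so no library went against its genotype label. Xist, the RNA of the inactive X chromosome, lay at 442 to 758 CPM (counts per 1000000 of the library size scaled by TMM) in all 6 libraries, while 4 Y-linked genes had 0 counts in each, which allows for up to 3 counts, or 0.155 to 0.194 CPM. The 9 hepatocyte marker genes summed to between 96888 and 113653 CPM in wild-type mice and between 104091 and 131017 CPM in knockout mice. The mean of all 10 Kupffer cell and macrophage markers was lower in knockout mice, and their sum was 349 to 947 CPM in wild-type against 281 to 311 CPM in knockout mice. The summed markers of stellate cells (436 to 662 against 393 to 506 CPM), sinusoidal endothelium (254 to 546 against 308 to 415 CPM), cholangiocytes (27.6 to 35.1 against 26.5 to 29.7 CPM) and neutrophils (6.52 to 10.4 against 3.22 to 7.03 CPM) overlapped between genotypes. In whole liver, fewer cells of a type and less RNA per cell cannot be told apart. Wild-type mouse 3 stood apart from the others, with a correlation of log2 CPM of 0.945 to 0.959 with the other 5 libraries. Pairs among those 5 libraries had correlations of 0.964 to 0.981. Values that rest on wild-type mouse 3 are given below.

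None of the 10 genes passed an adjusted p of 0.05 in the comparison of genotypes. Here 0 of 10 were called by edgeR's quasi-likelihood test, where 0.0141% of all tested genes were called, and 0 of 10 by DESeq2, where 2.03% were called (1.33% lower in the knockout). At an unadjusted p under 0.05, edgeR, DESeq2 and limma-voom each gave 0 of the 10, against 12.8% of all tested genes in edgeR (5.22% higher and 7.59% lower). The mean was higher in the knockout for 6 genes and lower for 4, and the median log2 fold change (knockout relative to wild-type, as everywhere below) was 0.10 against −0.01 over all tested genes. In 2 of the 10, Igfbp4 and Insr, every knockout mouse lay above every wild-type mouse, where 18.2% of all tested genes separated the genotypes in either direction, 8.81% upward and 9.42% downward. A p-value here sets a difference against the spread between mice, and the fit draws that spread in part from other genes. With 3 mice against 3 the smallest p that an exact two-sided permutation test of a single gene can give is 0.1, so p-values come from the fit over all genes.

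**Figure D1:**
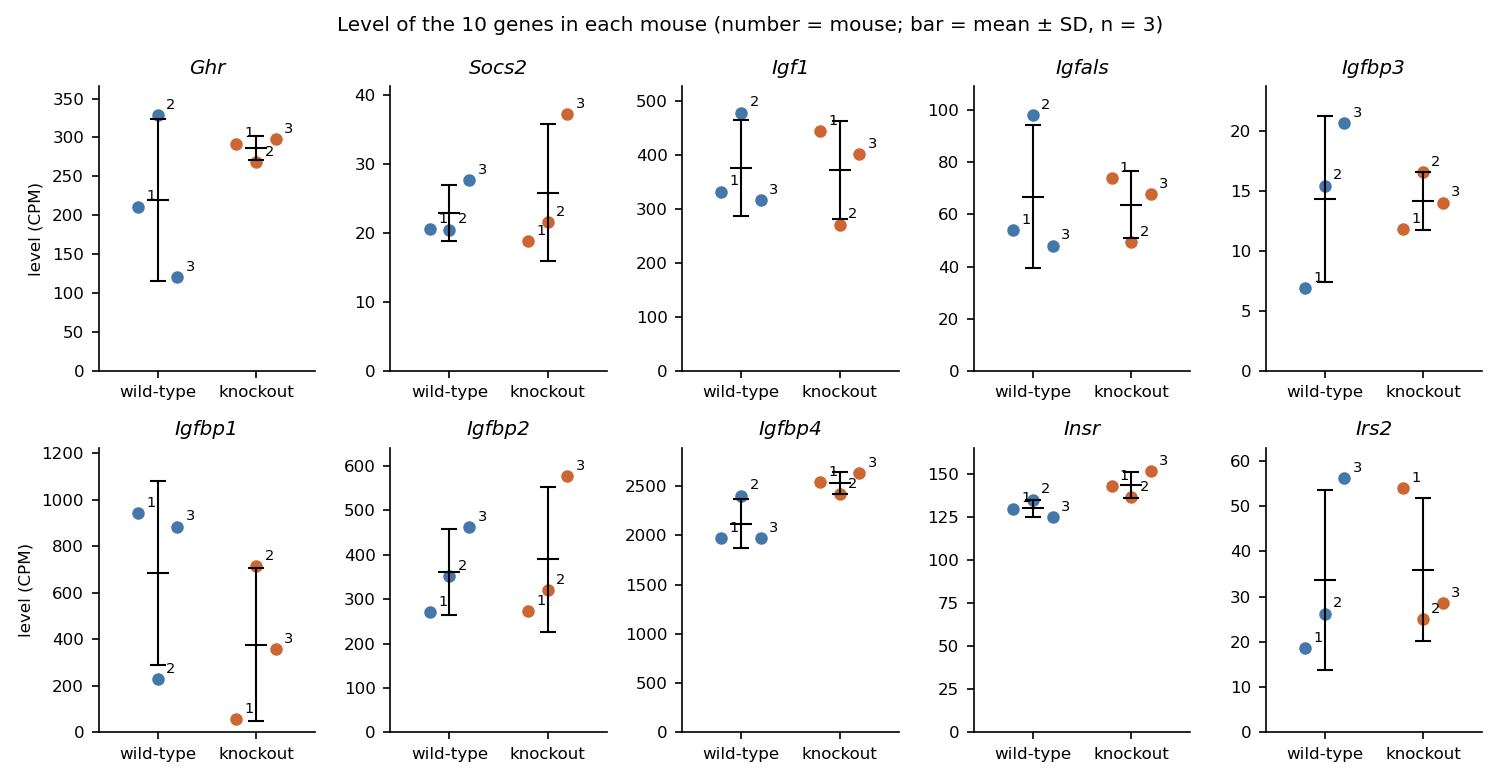
Level of each of the 10 genes in CPM on linear axes that start at 0, with 1 numbered point per mouse and a bar for the mean ± SD of 3 mice per genotype. Igfbp1 spreads from 57.6 to 942 CPM within overlapping groups, while the Insr and Igfbp4 points of the genotypes do not overlap.

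The spread between mice of 1 genotype differed widely among the 10 genes. The standard deviation of log2 values within genotypes placed Igfbp1 at the 99.7th percentile of 9041 genes with a mean of at least 8 CPM, and Insr at percentile 3.81. Of the other genes only Igfbp4, at percentile 22.9, lay below the middle, and the remaining 7 lay between percentile 84.6 (Igf1) and percentile 97.4 (Irs2). These 7 transcripts were thus less uniform among mice of 1 genotype than most of the 9041 genes, though each rests on 127 or more counts in every library.

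Per length of annotated exons, the binding proteins Igfbp4, Igfbp1 and Igfbp2 were the most abundant of the set. Dividing CPM by the length of the exons in kb put Igfbp4 at 526 CPM per kb averaged over the 6 mice (range 446 to 596), Igfbp1 at 348 (37.8 to 618) and Igfbp2 at 203 (146 to 312). Igf1 came next at 37.7 CPM per kb (27.3 to 48.2), then Ghr at 27.9 (13.3 to 36.3), Igfals at 20.6 (15.2 to 31.0) and Insr at 9.97 (9.10 to 11.0). Irs2, Igfbp3 and Socs2 were lowest, with means of 5.50, 4.55 and 2.56 CPM per kb. The ranges of neighbours in this order overlapped except between Igfbp2 and Igf1, between Igfals and Insr, and between Insr and Irs2, so neighbours elsewhere in the order did not differ beyond their ranges. Genes further apart could still differ: Igfbp4 and Igfbp2 did not overlap.

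Promoter letters are shown for the 3 genes whose start carries a motif tied to the pathway. RefSeq promoter windows of GRCm38.p6, 250 bases before to 50 bases after a start, held 12 windows for 8 of the 10 genes. Both strands were searched for CAAAANA and GTAAANA, forms of the FOXO recognition letters, and for TTCNNNGAA, the letters of the STAT5 site. CAAAANA was found in windows of Igfbp1 and Irs2, GTAAANA in Igfals, and TTCNNNGAA in Igfals. These motifs are common: 18.6%, 12.4% and 8.3% of all 32851 windows hold them. The stretches below end before the annotated exon and are given 5′ to 3′ on the strand of the gene, with matches of CAAAANA (on either strand) or TTCNNNGAA in capitals.
Igfbp1, chr11:7197637-7197781, plus strand: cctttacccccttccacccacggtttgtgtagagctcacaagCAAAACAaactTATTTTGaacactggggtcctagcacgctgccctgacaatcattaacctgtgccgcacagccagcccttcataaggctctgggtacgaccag
Irs2, chr8:11008930-11009029, minus strand: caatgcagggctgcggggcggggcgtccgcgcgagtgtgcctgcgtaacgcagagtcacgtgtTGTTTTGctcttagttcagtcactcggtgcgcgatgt
Igfals, chr17:24878081-24878214, plus strand: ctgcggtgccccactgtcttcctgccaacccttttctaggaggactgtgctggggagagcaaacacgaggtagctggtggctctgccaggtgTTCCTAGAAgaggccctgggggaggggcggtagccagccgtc

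The Igfbp1 stretch holds the insulin response sequence for which this gene is a textbook case, with CAAAANA on the plus strand 108 to 102 bases before the start and on the minus strand 97 to 91 bases before it. A pair in this orientation, with starts at most 11 bases apart (the distance in Igfbp1, set after it was seen), stood in 8 of the 32851 windows, or 0.0244%. The Irs2 match lies 37 to 31 bases before the start that its RefSeq window uses. That start is upstream of the GENCODE gene, which begins at 11008458 on the minus strand, so the match lies farther from the GENCODE start. The printed STAT5-type match of Igfals lies 58 to 50 bases before the start of its shorter coding transcript, within an intron of longer ones. Another Igfals window held a further match of TTCNNNGAA, 236 to 228 bases before its own start, which is not printed. These are matches of letters, and binding was not measured.

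The growth hormone receptor transcript varied mainly among the wild-type mice. Ghr (ENSMUSG00000055737; GRCm38, chromosome 15, 3317760 to 3583492, minus strand) was at 211, 328 and 120.3 CPM in wild-type mice 1, 2 and 3 and at 292, 269 and 298 CPM in knockout mice 1, 2 and 3. The 3 knockout mice lay close together, inside the wild-type range, and wild-type mouse 3 was the lowest of all. The means were 220.0 ± 104 and 286 ± 15.5 CPM (SD, n = 3 each), a log2 fold change of 0.38 ± 0.32 (SE; 95% interval −0.37 to 1.13; edgeR adjusted p = 0.694). It was 0.09 without wild-type mouse 3 and 0.80 without wild-type mouse 2 (edgeR adjusted p = 0.163), so its size rests on which wild-type mice are counted.

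Socs2, whose protein marks the growth hormone receptor for degradation, showed no separation of the genotypes. Socs2 (ENSMUSG00000020027; chromosome 10, 95385362 to 95417180, minus strand) was at 20.6, 20.5 and 27.6 CPM in wild-type and at 18.8, 21.6 and 37.2 CPM in knockout mice. The values overlapped, and knockout mouse 3 was the highest. Its log2 fold change was 0.17 ± 0.27 (95% interval −0.44 to 0.79; edgeR adjusted p = 0.853), and without knockout mouse 3 it was −0.17.

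The hormone and the acid-labile subunit, the main growth hormone outputs of the liver, had nearly the same mean in both genotypes. Igf1 (ENSMUSG00000020053; chromosome 10, 87858265 to 87937042, plus strand) was at 332, 478 and 316 CPM in wild-type and at 444, 271 and 401 CPM in knockout mice. The highest mouse was wild-type and the lowest knockout, and the means were 375 ± 89.0 and 372 ± 90.2 CPM. The difference on the log2 scale was −0.01 ± 0.23 (95% interval −0.55 to 0.53; edgeR adjusted p = 0.991), so the interval takes in ratios of knockout to wild-type from 0.682 to 1.44.

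Igfals (ENSMUSG00000046070; chromosome 17, 24865997 to 24882010, plus strand) was at 54.0, 98.2 and 48.1 CPM in wild-type and at 73.9, 49.5 and 67.9 CPM in knockout mice. All knockout values lay within the wild-type range, which wild-type mouse 2 stretched upward. On the log2 scale the fold change was −0.07 ± 0.29 (95% interval −0.74 to 0.60; edgeR adjusted p = 0.954), and it was 0.33 without wild-type mouse 2.

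Igfbp3, whose protein joins IGF-I and the acid-labile subunit in the circulating complex, was the scarcest of the binding protein members. Igfbp3 (ENSMUSG00000020427; chromosome 11, 7206086 to 7213923, minus strand) was at 6.90, 15.4 and 20.7 CPM in wild-type and at 11.8, 16.6 and 14.04 CPM in knockout mice. The knockout mice again lay within the wild-type range. Knockout and wild-type differed by a log2 fold change of −0.02 ± 0.36 (95% interval −0.86 to 0.83; edgeR adjusted p = 0.991). The summed level of 10 sinusoidal endothelial markers was 546, 379 and 254 CPM in wild-type mice 1, 2 and 3 and 415, 334 and 308 CPM in the knockout mice; its part in the spread of Igfbp3 was not tested.

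**Figure D2:**
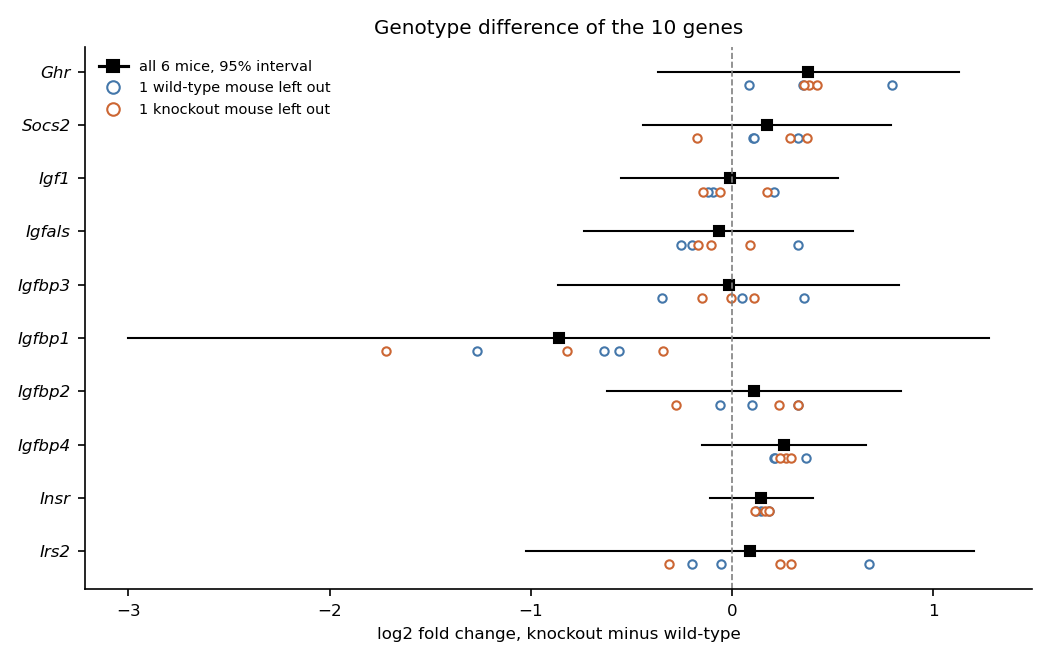
Log2 fold change of each gene, knockout relative to wild-type, on the horizontal axis, with squares and lines for the edgeR estimate and its 95% interval over 6 mice and open circles for the estimate with 1 mouse left out. Every interval spans 0, and the circles of Igfbp1, Igfbp4, Insr and Ghr stay on 1 side of 0.

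Igfbp1 encodes the binding protein that insulin holds down and fasting and stress raise, and it had the largest fold change and the largest error of the set. Igfbp1 (ENSMUSG00000020429; chromosome 11, 7197782 to 7202546, plus strand) was at 942, 228 and 884 CPM in wild-type and at 57.6, 714 and 358 CPM in knockout mice. The genotypes overlapped, and the highest mouse exceeded the lowest 16.3-fold, with a range of 4.13-fold within the wild-type and of 12.4-fold within the knockout mice. The means were 684 ± 397 and 377 ± 329 CPM, and the log2 fold change was −0.86 ± 0.89 (95% interval −3.0 to 1.28; edgeR adjusted p = 0.760). Without knockout mouse 1 it was −0.34, and without knockout mouse 2 it was −1.72. The fewest Igfbp1 counts in any library were 869. Igfbp1 and Igfbp3 are neighbours that face each other with 3.54 kb between their ends, and their orders over the mice differed: wild-type mouse 1 was the highest in Igfbp1 and the lowest in Igfbp3.

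Igfbp2 encodes a binding protein that circulates at high level when growth hormone or insulin is low. Igfbp2 (ENSMUSG00000039323; chromosome 1, 72824503 to 72852474, plus strand) was at 270.3, 351 and 462 CPM in wild-type and at 272, 320.3 and 576 CPM in knockout mice. Knockout mouse 3 was the highest, and the other values of the 2 genotypes interleaved. The fold change was 0.11 ± 0.31 on the log2 scale (95% interval −0.62 to 0.84; edgeR adjusted p = 0.926), and without knockout mouse 3 it was −0.28.

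Igfbp4, whose protein is cleaved by the protease encoded by Pappa, was the most even of the 4 binding protein members and was higher in every knockout mouse than in any wild-type mouse. Igfbp4 (ENSMUSG00000017493; chromosome 11, 99041244 to 99054392, plus strand) was at 1970.2, 2403 and 1976 CPM in wild-type and at 2542, 2416 and 2633 CPM in knockout mice. The gap between the groups was narrow, between wild-type mouse 2 and knockout mouse 2. The means were 2116 ± 248 and 2530.3 ± 109 CPM, a log2 fold change of 0.26 ± 0.18 (95% interval −0.15 to 0.67; edgeR adjusted p = 0.611, DESeq2 adjusted p = 0.506). The estimate stayed between 0.21 and 0.37 as each mouse was left out.

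The make-up of the binding protein transcripts followed Igfbp1. Over Igfbp1 to Igfbp7, scaled by length, Igfbp4 made up 34.0%, 53.9% and 31.7% in the wild-type and 66.4%, 42.0% and 48.6% in the knockout mice. Igfbp1 made up 47.0%, 14.8% and 41.0% in the wild-type and 4.35%, 35.9% and 19.2% in the knockout mice. So Igfbp1 led in wild-type mice 1 and 3 and Igfbp4 in the other 4 mice. The length used joins all annotated exons of a gene, 4416 bases for Igfbp4 and 1525 for Igfbp1. Which of the 2 leads in a mouse depends on that choice of length. The mean share of Igfbp1 was 34.3% ± 17.1 in wild-type and 19.8% ± 15.8 in knockout mice, and that of Igfbp4 was 39.9% ± 12.2 and 52.3% ± 12.6; both overlapped between genotypes. Igfbp2 held 11.1% to 25.4% and Igfbp7 held 6.30% to 11.3%, while Igfbp3, Igfbp5 and Igfbp6 each stayed under 1%. The summed level was 1245 ± 210 CPM per kb in wild-type and 1133 ± 233 CPM per kb in knockout mice.

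**Figure D3:**
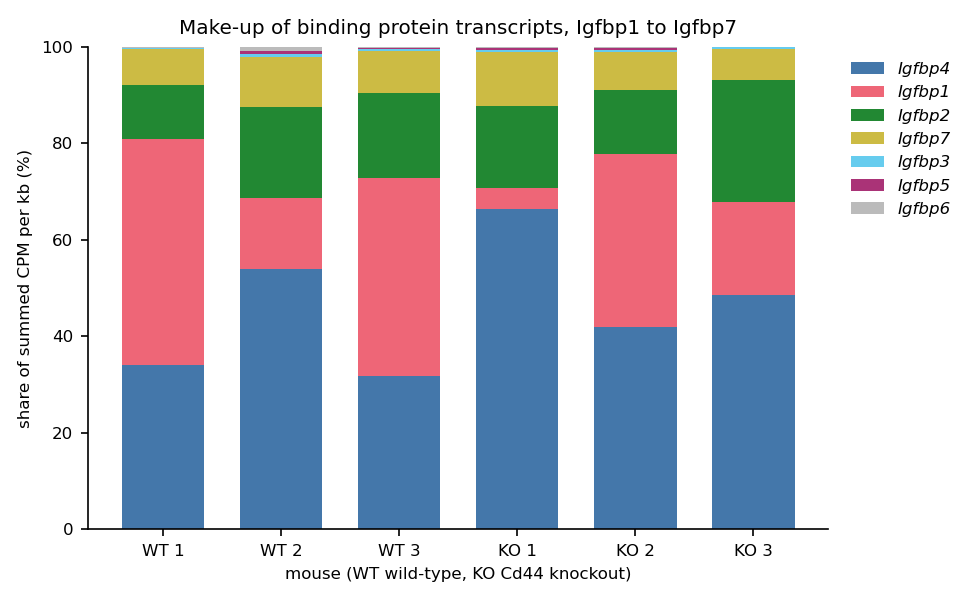
Share of each of the 7 binding protein transcripts in their summed CPM per kb, in percent on the vertical axis from 0, with 1 stacked bar per mouse. The Igfbp1 share is 47.0% in wild-type mouse 1 and 4.35% in knockout mouse 1, with the other mice between.

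The insulin receptor transcript was among the steadiest in the liver. Insr (ENSMUSG00000005534; chromosome 8, 3122061 to 3279617, minus strand) was at 129.9, 135 and 125 CPM in wild-type and at 143, 137 and 152 CPM in knockout mice. Every knockout mouse was above every wild-type mouse, and the highest and lowest of all 6 mice differed 1.21-fold. The means were 130.1 ± 5.03 and 144 ± 7.58 CPM, and the log2 fold change was 0.15 ± 0.11 (95% interval −0.11 to 0.40; edgeR adjusted p = 0.650, DESeq2 adjusted p = 0.802). The upper bound of the interval is 1.32-fold.

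Irs2, the adaptor that insulin represses through FOXO, overlapped between genotypes. Irs2 (ENSMUSG00000038894; chromosome 8, 10984681 to 11008458, minus strand) was at 18.6, 26.3 and 56.2 CPM in wild-type and at 54.0, 25.1 and 28.6 CPM in knockout mice. A single mouse of each genotype, wild-type mouse 3 and knockout mouse 1, lay well above the other 4. The log2 fold change was 0.09 ± 0.47 (95% interval −1.02 to 1.204; edgeR adjusted p = 0.963), and it ran from −0.32 without knockout mouse 1 to 0.68 without wild-type mouse 3. Irs2 and Igfbp1 did not share an order: knockout mouse 1 was the second highest in Irs2 and the lowest in Igfbp1.

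**Figure D4:**
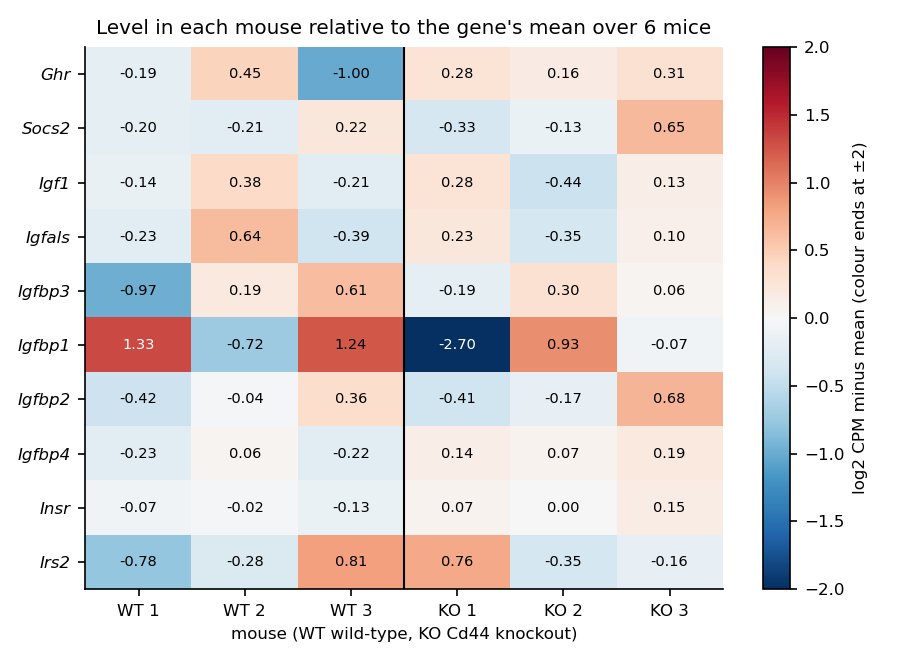
Log2 CPM of each gene in each mouse minus its mean over the 6 mice, as colour and number, with wild-type mice to the left of the black line and knockout mice to the right. Igfbp1 carries the strongest colours, Ghr is lowest in wild-type mouse 3, and Igf1 and Igfals share their order over nearly all mice.

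Between mice, Igf1 and Igfals kept nearly the same order, and the mice with the most Igfbp1 had the least of both. From high to low, Igf1 ranked wild-type 2, knockout 1, knockout 3, wild-type 1, wild-type 3 and knockout 2, and Igfals differed only in the order of the last 2. The 3 mice with the most Igfbp1 (wild-type 1 and 3 and knockout 2) were the 3 with the least Igf1 and the least Igfals, and this split did not follow genotype. All 45 pairs among the 10 genes were correlated over the 6 mice by exact permutation, where the smallest p possible is 0.00139. Of these, 4 had an unadjusted p under 0.05 and 0 passed after Benjamini-Hochberg adjustment, with a smallest adjusted p of 0.208.

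For Igf1 and Igfals, Pearson's r was 0.937 (exact permutation p = 0.0139, adjusted 0.208) and Spearman's rho was 0.943 (exact permutation p = 0.0167), and r was 0.99 without the 2 mice farthest from the median of Igf1. For Igf1 and Igfbp1, r was −0.776 (exact permutation p = 0.0514, adjusted 0.463) and rho was −0.714 (exact permutation p = 0.136), and r was −0.931 without the same 2 mice. For Igfals and Igfbp1, r was −0.709 (exact permutation p = 0.106, adjusted 0.594) and rho was −0.771 (exact permutation p = 0.103). Igfbp4 and Insr gave an r of 0.913 (exact permutation p = 0.00972, adjusted 0.208) and a rho of 0.943 (exact permutation p = 0.0167). The correlations took no account of genotype, and these are the 2 genes in which every knockout mouse lay above every wild-type mouse. Igfbp2 and Socs2 gave an r of 0.951 (exact permutation p = 0.0111) and a rho of 0.714 (exact permutation p = 0.136), and r was 0.51 without wild-type mouse 3 and knockout mouse 3, on which the relation rests. Igfbp4 and Ghr likewise fell from an r of 0.823 (exact permutation p = 0.0375, adjusted 0.422) to −0.07 without wild-type mice 1 and 3.

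Around these genes, 7 lists of pathway genes held 118 genes, of which 108 were tested. By edgeR 0 of the 108 passed an adjusted p of 0.05, by DESeq2 1 did, and 16 (14.8%, 8 in each direction) had an unadjusted p under 0.05 in edgeR, close to the 12.8% of all tested genes. The genes named in each list are those of smallest p, so their separation is a description.

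Among ligands, receptors and regulators of IGF, 7 of 12 genes were tested, 1 with a higher and 6 with a lower mean (median log2 fold change −0.62). Igf2r, which encodes the receptor that takes up and degrades IGF-II, was at 89.2, 70.5 and 95.05 CPM in wild-type and at 58.1, 61.0 and 49.0 CPM in knockout mice. Its groups did not overlap, with a log2 fold change of −0.60 ± 0.15 (edgeR adjusted p = 0.217, DESeq2 adjusted p = 0.0553). Igfbp5 had 21.1 ± 17.3 against 13.0 ± 7.89 CPM (−0.68 ± 0.67, edgeR adjusted p = 0.746), and without wild-type mouse 2 the list's median turned to 0.18. Igfbp7 had 132 ± 15.6 against 112 ± 16.5 CPM (−0.23 ± 0.15, edgeR adjusted p = 0.581; −0.11 without knockout mouse 3), and it overlaps Polr2b on the opposite strand, so reads of the 2 genes may mix. The second ligand gene, Igf2, had 0 to 2 counts per library, and the IGF-I receptor gene Igf1r, described after its values were seen, lay at 3.29 to 5.70 CPM.

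The 16 genes of growth hormone and prolactin receptor signalling had 10 higher and 6 lower means (median 0.13). Stat3 was at 132 ± 34.3 against 188 ± 23.8 CPM (0.52 ± 0.20, edgeR adjusted p = 0.348). Jak2, the receptor's kinase, was at 23.8 ± 0.585 against 19.6 ± 1.19 CPM (−0.28 ± 0.12, edgeR adjusted p = 0.374). Ptpn6, a phosphatase abundant in leukocytes, was at 22.7 ± 2.96 against 16.9 ± 0.319 CPM (−0.43 ± 0.14, edgeR adjusted p = 0.277), beside the lower macrophage marker sum given above, whose part was not tested. These 3 separated the genotypes without overlap, and so did Stat5a, described after its values were seen. Stat5a was at 13.9, 16.8 and 16.1 CPM in wild-type and at 29.8, 17.2 and 18.3 CPM in knockout mice (0.48 ± 0.22, edgeR adjusted p = 0.419). Of the 16 genes 2 thus separated upward and 2 downward, where 18.2% of all tested genes separated in either direction. Stat3 overlaps Stat5a on the opposite strand by 72 bases, which leaves both levels uncertain.

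Of the insulin receptor signalling genes 27 of 29 were tested, with 12 higher and 15 lower means and a median of −0.03. The smallest p-values belonged to Pik3r2, Rptor and Foxo4, with log2 fold changes of −0.36 ± 0.17, −0.25 ± 0.13 and −0.28 ± 0.15 (edgeR adjusted p of 0.422, 0.468 and 0.488). They fell in size to −0.23 without wild-type mouse 2, −0.15 without wild-type mouse 1 and −0.16 without knockout mouse 3. The 17 brakes of the insulin receptor and genes of insulin clearance split into 9 higher and 8 lower (median 0.04). Trib1 was at 79.0 ± 21.7 against 43.4 ± 12.7 CPM (−0.86 ± 0.27, edgeR adjusted p = 0.270), Grb7 at 65.98 ± 7.51 against 89.3 ± 13.3 CPM (0.44 ± 0.15, edgeR adjusted p = 0.294), and Inppl1 differed by −0.28 ± 0.11 (edgeR adjusted p = 0.335).

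The 14 transcripts known to respond to insulin had 5 higher and 9 lower means (median −0.29). Pck1, which encodes the gluconeogenic enzyme PEPCK, was the gene called by DESeq2. It was at 1041, 1538 and 3217 CPM in wild-type and at 691, 872 and 1019 CPM in knockout mice, with no overlap. Its log2 fold change was −1.17 ± 0.40 (edgeR adjusted p = 0.301, DESeq2 adjusted p = 0.0473), and it was −0.58 in edgeR without wild-type mouse 3. Pdk4, a gene of the fasting state, was at 28.8, 12.8 and 35.9 CPM in wild-type and at 12.3, 16.8 and 12.3 CPM in knockout mice (−0.91 ± 0.36, edgeR adjusted p = 0.358), and among the alternatives run it passed the edgeR threshold only without wild-type mouse 2 (−1.22, adjusted p = 0.0429), while without wild-type mouse 3 it was −0.60. G6pc, described after its values were seen, did not share this order: it was at 376, 910 and 127 CPM in wild-type and at 134, 364 and 229 CPM in knockout mice. Pck1 lies on chromosome 2, 70.3 Mb from Cd44.

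The pulse pattern of growth hormone sets sex-biased genes in mouse liver, and 2 lists of these were read beside the receptor. The male-biased Cyp4a12a and Hsd3b5, described after their values were seen, had at most 1 count in any library. Their absence stands beside the Xist level and the 0 counts of Y-linked genes given above, and is not read as a growth hormone result. Of 15 male-biased genes 12 were tested, with 6 higher and 6 lower means (median −0.01). Nudt7 was at 40.6 ± 6.76 against 57.7 ± 1.25 CPM (0.51 ± 0.14, edgeR adjusted p = 0.229), and Elovl3 at 0.311 ± 0.368 against 2.07 ± 1.37 CPM (2.79 ± 0.85, edgeR adjusted p = 0.258). Elovl3 had only 4, 11 and 0 counts in wild-type and 23, 21 and 53 in knockout libraries, so its fold change rests on values near the floor. Serpina1e, a member of a family of near-identical copies and so uncertain, was at 29.0 ± 3.25 against 77.8 ± 61.8 CPM (1.42 ± 0.55, edgeR adjusted p = 0.362), and its log2 fold change was 0.59 without knockout mouse 1.

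All 15 female-biased genes were tested, with 8 higher and 7 lower means (median 0.11). Cyp17a1 was at 233 ± 78.7 against 366 ± 61.6 CPM (0.65 ± 0.27, edgeR adjusted p = 0.374), and its log2 fold change was 0.39 without wild-type mouse 3. Cyp2b9, whose reads may be shared with close copies, was at 419.9 ± 174 against 640.2 ± 71.2 CPM (0.61 ± 0.31, edgeR adjusted p = 0.473), and 0.31 without the same mouse. Acot3, which overlaps an antisense gene, differed by −0.63 ± 0.26 (edgeR adjusted p = 0.377), and by −0.42 without wild-type mouse 2. The list's median had no stable sign: it was 0.87 without wild-type mouse 2 and −0.21, −0.19 and −0.03 without wild-type mouse 3, knockout mouse 1 and knockout mouse 2.

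Wild-type mouse 3, the mouse with the least Ghr, also had the least of most female-biased genes. In this mouse 10 of the 15 had their lowest value, where 23.8% of all tested genes were lowest there. The trait was not confined to this list: 7 of 10 sinusoidal endothelial markers, 6 of 9 hepatocyte markers and 11 of 27 insulin receptor signalling genes were also lowest there. Of the 10 macrophage markers 0 were, and of the 7 tested IGF ligand and receptor genes 0 were. The female-biased list's median deviation from the gene means was −1.44 on the log2 scale in this mouse and 0.12 to 0.49 in the other 5. The next genes were chosen after their values were seen. Cyp3a41a, one of several close copies, was at 5.29 CPM in wild-type mouse 3 and at 115 to 261 CPM in the others. Prlr, the prolactin receptor, was at 81.4 against 157 to 240.2 CPM. The acute-phase genes Lcn2, Hp and Hpx were highest in the same mouse, at 1526 against 61.6 to 189 CPM, 6001 against 2892 to 4182 CPM and 7224 against 3748 to 4387 CPM. The 15 acute-phase genes did not move together there: 4 were highest and 3 were lowest in this mouse, and the list's median deviation was −0.09. Of the 10 genes, Ghr, Igfals and Insr had their lowest value in this mouse, and Igfbp3 and Irs2 their highest. Over all tested genes 23.8% were lowest and 23.6% highest there, so these counts are not read as a trait of the 10 genes. What the genes lowest or highest in wild-type mouse 3 have in common was not tested.

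**Figure D5:**
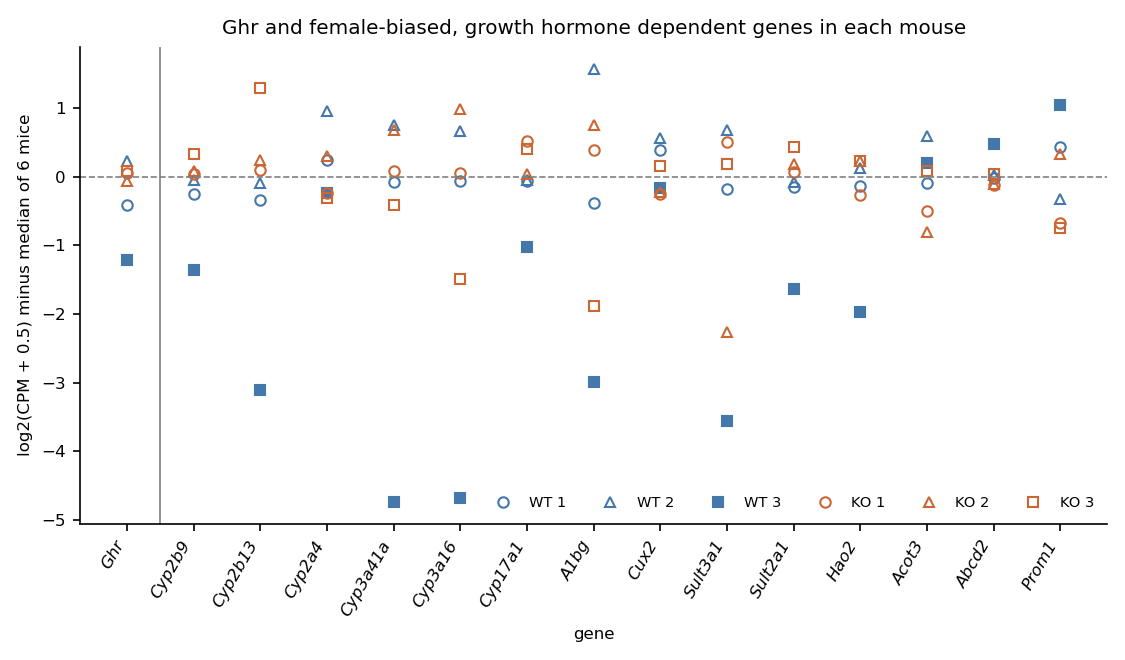
Level of Ghr and of 14 of the 15 female-biased genes in each mouse, as log2(CPM + 0.5) minus the median of the 6 mice on the vertical axis, with 1 symbol per mouse and wild-type mouse 3 as filled squares. The filled squares are the lowest point for Ghr and for 9 of these 14.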

How the data were processed

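The authors deposited a table of unnormalised read counts, with Ensembl genes in rows and mice in columns. The submitters' processing notes name HISAT2 2.0.5, StringTie 1.3.3b, featureCounts 1.5.0-p3 and GRCm38.p6; the strand setting and the handling of multi-mapped reads are not stated there. Poly(A) RNA was copied with random hexamers, and no strand-marking step is described, per the labels' protocols. Symbols and positions came from GENCODE, which matched 54495 of 54682 rows; 150 rows with no gene name (0.273% to 0.509% of counts) were left out.

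In R 4.3.3, edgeR 4.0.16 kept genes by filterByExpr, scaled by TMM and tested genotype by robust quasi-likelihood, calling genes at a Benjamini-Hochberg adjusted p under 0.05 across all 14145 tested. SEs were taken as the log2 fold change over the root of the F statistic. Alternatives were DESeq2 1.42.0, limma 3.58.1 (voom), RLE scaling, other filters, mouse number as a block and leaving out each library. The floor covers counting error only.

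The 10 genes and the lists were chosen with earlier results of these data known. Named genes are the 10, Cd44, up to 3 genes of smallest p or any called gene per list, and up to 3 acute-phase genes; others are marked, and some genes of the lists are not reported here by name.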

Additional observations from a re-analysis of the deposited data

How the results depend on the processing

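Across 15 alternatives (150 combinations with the 10 genes), 0 passed the threshold, with a smallest edgeR adjusted p of 0.163 (Ghr without wild-type mouse 2), and 15 turned the sign of the log2 fold change. Igfbp3 turned to 0.12 in limma-voom and 0.10 with the replicate block. Leaving out each library gave −0.14 to 0.21 for Igf1, −0.25 to 0.33 for Igfals, −0.28 to 0.33 for Igfbp2, −0.35 to 0.36 for Igfbp3, −0.17 to 0.37 for Socs2, −0.32 to 0.68 for Irs2 and −1.25 to 0.22 for Igfbp5; Igfbp1, Igfbp4, Ghr and Insr kept their direction in all 15. Over all genes, 2 were called by edgeR, 6 without a low-count filter, 287 by DESeq2, 0 by limma-voom (1695 at an unadjusted p under 0.05), 1 by the older quasi-likelihood fit (chosen after seeing the data), 1 with the replicate block, and 0 to 151 with 1 library left out: 151 without wild-type mouse 2, 1 without knockout mouse 1 and 0 without knockout mouse 2 or 3 (1444 and 979 at an unadjusted p under 0.05). Of the list genes, DESeq2 called 1 and leaving out a library gave 0 to 1. Median log2 fold changes of lists with 1 library left out ran from −1.25 to 0.18 (IGF ligands and receptors), 0.059 to 0.23 (growth hormone signalling), −0.043 to 0.078 (insulin brakes), −0.33 to −0.085 (insulin-responsive), −0.15 to 0.32 (male-biased) and −0.21 to 0.87 (female-biased). The insulin-responsive median was −0.13 in limma-voom and −0.15 with the replicate block. The cause of these shifts was not tested. The labels state no pairing by mouse number. Same-numbered mice had correlations of deviations of −0.02, −0.02 and −0.01, and differently numbered mice of −0.06 to 0.08. Deviations sum to 0 within a genotype, so these values cannot decide whether the mice were paired. Of the 10 genes 0 were called with or without the block. The fewest counts of any of the 10 genes in a library were 127.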
